A study of Mus musculus with 2 samples.

Results

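The cytosolic ribosome is built from ribosomal RNA and a set of proteins encoded by the Rpl genes of the large subunit and the Rps genes of the small subunit. The genes examined here are every gene symbol made of Rpl or Rps, a number and at most one letter (a, x, l or y), together with Rplp0, Rplp1, Rplp2 and Rpsa, with symbols of pseudogenes (-ps) left out. There were 83 such genes among the 56980 in the tables, 51 of them of the large and 32 of the small subunit. Rpl6l and Rpl32l match the rule by symbol but are annotated as pseudogenes, which leaves 81 that are annotated as protein coding. The data are UMI counts from single-nucleus RNA sequencing of visceral adipose tissue (VAT) from 2-month-old female C57BL/6J mice, with no treatment or engineered allele given in the labels. A UMI is a molecular tag that counts 1 captured RNA molecule. There were 2 libraries of this single group, called replicate 1 and replicate 2. According to the study the depot is the gonadal fat, and its methods say that nuclei were captured with the Singleron GEXSCOPE kit. The sample descriptions instead name 10x Genomics and give the cell type as adipocytes.

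Ribosomal protein mRNAs are short, abundant and stable, and most of them lie in the cytoplasm on ribosomes. They carry a 5′ terminal oligopyrimidine (TOP) tract, a C at the start of the mRNA followed by a run of pyrimidines, through which mTOR and LARP1 control how strongly they are translated. An isolated nucleus should hold little of them apart from newly made transcripts, and RNA from the mitochondrial genome (mt- genes) should be lacking from a clean nucleus. Therefore, the level of the ribosomal protein genes was compared between cell types and along the mitochondrial share of the nuclei, which was taken as a sign of cytoplasmic RNA.

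The libraries were unlike each other. Nuclei with more than 500 genes, more than 1000 UMIs and less than 15% mitochondrial UMIs numbered 2833 of 7344 in replicate 1 (8466237 UMIs, median 2221 per nucleus) and 12225 of 17148 in replicate 2 (48068273 UMIs, median 2726). The median mitochondrial share was 6.20% in replicate 1 and 0.621% in replicate 2. The libraries shared 27 barcodes among the kept nuclei, 0.953% of those in replicate 1 and 0.221% of those in replicate 2. Clusters were named from marker genes as adipocyte, mesothelial, FAP (fibro-adipogenic progenitor), endothelial, macrophage, lymphoid and dendritic, and smooth muscle, so the cell type given in the labels covers 1819 of the kept nuclei in replicate 1 and 6176 in replicate 2. One small cluster stayed unnamed, since it held 5 of 8 macrophage and 3 of 5 erythroid markers. With 1 group there is no comparison of conditions, and the values of both libraries are given side by side throughout.

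The TOP tract is the sequence feature that these genes share, and it was looked for at their annotated starts. RefSeq (GRCm38.p6) gave a promoter for 61 of the 83 genes, with 73 starts. A C opening a run of at least 5 pyrimidines lay exactly at the start in 14 of the 73 (19.2%), against 823 of 32851 starts over all genes (2.51%). Within 5 bases of the annotated start on either side, on the strand of the gene, it was found at 31 starts of 29 genes (42.5%), against 18.3% of all starts. The genes of mitochondrial ribosomal proteins, which are translated in the cytoplasm but serve another ribosome, held no exact match among 75 starts, and 22.7% of them had one within 5 bases. For the short cytoplasmic mRNAs of other functions described further on, these were 0 and 4 of 12 starts (33.3%). The motif was searched as letters only, and an absent match says only that these letters are not in this window. The 6 sequences below were chosen because their genes stand at different ends of the results, and all of them hold a match, unlike most starts. The starts of Rps3 and Rplp0 hold none, and Rps21 has another start without a match that is not shown. Each sequence holds 10 bases before and 20 bases from the annotated start. The match is in capitals, from the C at which it was read to the end of the run. Pyrimidines can also precede the capitals. Rps21 and Rps9 were lower in adipocytes than in other cell types, Rplp2 was higher in endothelial nuclei, and Rps6 and Rpl38 passed no test between cell types on the scale of all genes. Rps15a was among the least changed of the genes that rose with the mitochondrial share.
Rps21, chr2:180257369-180257398, plus strand: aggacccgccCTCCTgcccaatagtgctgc
Rps9, chr7:3704031-3704060, plus strand: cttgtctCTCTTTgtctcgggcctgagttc
Rplp2, chr7:141447641-141447670, plus strand: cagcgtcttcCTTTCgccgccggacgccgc
Rps6, chr4:86857348-86857377, minus strand: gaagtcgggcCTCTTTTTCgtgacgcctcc
Rpl38, chr11:114668570-114668599, plus strand: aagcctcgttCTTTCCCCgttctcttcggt
Rps15a, chr7:118116128-118116157, minus strand: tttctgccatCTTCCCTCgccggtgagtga
In Rps21, Rplp2, Rps6, Rpl38 and Rps15a the capitals open at the annotated start itself, and in Rps9 they open 3 bases before it.

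The 83 genes together had 119377 UMIs, 27783 in replicate 1 (0.328% of its UMIs) and 91594 in replicate 2 (0.191%). A nucleus had a median of 6 of these UMIs in either library. They were spread unevenly. The 5 genes with the most UMIs held 24.7% of the total and the 10 with the most held 38.9%. Per kilobase of transcript, the highest was Rplp1 (ENSMUSG00000007892, GRCm39 chr9:61820557-61821872), a protein of the acidic stalk that recruits elongation factors, with a mean of 368 CPM (UMIs scaled to a common library total) per kilobase. Its level was 262 CPM in replicate 1 and 140 CPM in replicate 2. The next were Rps21 with 150 CPM per kilobase, Rpl41, which encodes one of the smallest proteins of the ribosome, with 135, Rps26 with 111 and Rps15 with 110.

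At the other end of the scale, Rpl10l and Rpl32l had 0 UMIs. Rpl10l is the copy of Rpl10 used in the testis, and a count of 0 allows up to 3 counts in each library. Among the detected genes the lowest per kilobase were Rpl24, with 2 UMIs, Rps10, with 7, and Rpl39l, with 18, followed by Rpl28 at 0.74 CPM per kilobase and Rpl3l at 1.09. Rpl24 and Rps10 encode core proteins of the cytosolic ribosome, yet were barely counted. Rpl3l, the paralog of Rpl3 known from muscle, had 107 UMIs in all. Of the other paralogs, Rps27l was at 26.9 and 13.4 CPM and Rps4l at 4.96 and 2.60 CPM in replicates 1 and 2. Ribosomal genes that the symbol rule does not reach had levels of the same order, with Rack1 of the small subunit at 128 and 80.3 CPM and Rps3a1 at 42.8 and 24.8 CPM.

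Many of these genes have near-identical copies elsewhere in the genome, between which reads could have been divided or discarded. A search of each coding sequence against GRCm39 found at least 1 other locus of 95% identity over 80% of its length for 70 of the 83 genes, 563 loci in all. Rpl21 had 56, Rpl7a 31, Rps2 29 and Rpl29 28. For the 77 genes with at least 100 UMIs, the median level was 47.1 CPM for the 20 genes with 0 or 1 such locus and 8.83 CPM for the 18 genes with 10 or more. Across these genes, which are not independent replicates, the rank correlation of the number of loci with the level was -0.272. Rps10 and Rpl24 have 2 and 3 such loci. How the counting treated reads with several matches is not given in the sources used here, so levels of genes with many copies are uncertain, and the part of the copies in any result was not tested.

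Both libraries ranked the genes alike, whereas replicate 1 was higher for most of them. Over the 77 genes with at least 100 UMIs, the CPM of the libraries had a rank correlation of 0.971, and 64 genes were higher in replicate 1, with a median ratio of 1.53. Rpl32 had the highest ratio (2.65, 165 against 62.4 CPM). The 13 genes that were lower in replicate 1 included Rpl17 (6.38 against 13.1 CPM, ratio 0.487), Rps6 (6.73 against 9.11 CPM), whose protein is the known substrate of S6 kinase, and Rpl5 (15.7 against 16.0 CPM), which with Rpl11 binds Mdm2 when ribosome assembly fails. Replicate 1 also had the higher mitochondrial share given above, and with 1 library on each side the animal and the share of cytoplasmic RNA cannot be told apart.

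**Figure D1:**
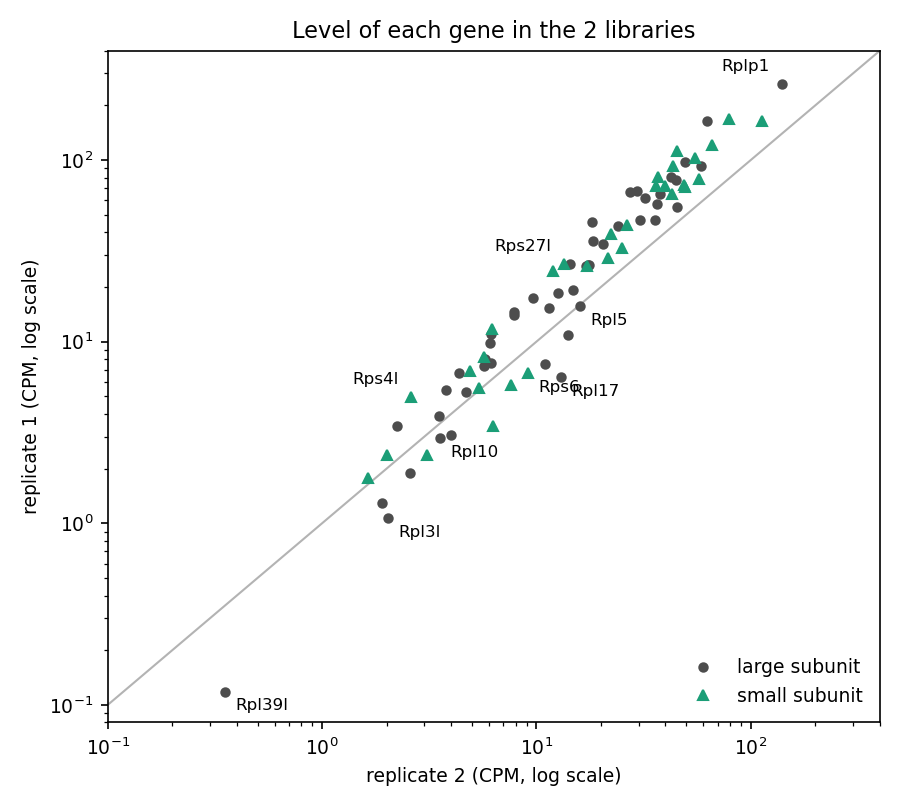
Level of each of the genes with at least 1 UMI in both libraries in CPM (log axes), replicate 2 on the x axis and replicate 1 on the y axis, with the line of equality. Circles are genes of the large and triangles genes of the small subunit; most points lie above the line (64 of the 77 genes with at least 100 UMIs), and Rpl17, Rps6 and Rpl3l lie below it.

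Adipocyte nuclei had the lowest level of the ribosomal protein genes among the named cell types, and lymphoid and dendritic nuclei the highest, in both libraries. Levels are given as a share of the UMIs of genes other than mt- genes, so that mitochondrial RNA itself does not dilute them. In adipocytes the share was 0.257% in replicate 1 and 0.129% in replicate 2 (0.193% ± 0.0904, SD, n = 2). It was 0.453% and 0.215% in smooth muscle (0.334% ± 0.168), which had only 23 nuclei in replicate 1. Mesothelial nuclei had 0.498% and 0.341% (0.419% ± 0.111), FAPs 0.588% and 0.282% (0.435% ± 0.217), and macrophages 0.533% and 0.350% (0.442% ± 0.129). Endothelial nuclei reached 0.705% and 0.461% (0.583% ± 0.172), and lymphoid and dendritic nuclei 1.04% and 0.504% (0.773% ± 0.380). A minority of the endothelial nuclei carried their level in replicate 2. The 161 of the 539 nuclei with over 2% mitochondrial UMIs held 4423 of the 6025 UMIs of these genes, and the median per endothelial nucleus was 4, against 5 in mesothelial nuclei and FAPs of that library.

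The difference between the libraries was as large as that between many cell types, therefore the order is best read within a library. FAPs stood above mesothelial nuclei and macrophages in replicate 1 and below both in replicate 2. Macrophages stood slightly above mesothelial nuclei in both libraries. The order of these 3 types also depends on the clustering. At the finer clustering described at the end, mesothelial nuclei had 0.637% and 0.430%. This was above FAPs (0.588% and 0.282%) and macrophages (0.531% and 0.350%) in both libraries. Within a library, lymphoid and dendritic nuclei stood 4.05-fold and 3.91-fold above adipocytes in replicates 1 and 2, endothelial nuclei 2.74-fold and 3.57-fold, macrophages 2.07-fold and 2.71-fold, mesothelial nuclei 1.94-fold and 2.64-fold, FAPs 2.29-fold and 2.18-fold, and smooth muscle 1.76-fold and 1.67-fold. In every cell type replicate 1 was the higher library, by 1.46-fold in mesothelial nuclei to 2.11-fold in smooth muscle.

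The low share of adipocytes was a share of a larger total. Adipocyte nuclei had a median of 2703 and 4944.5 UMIs in replicates 1 and 2, against 1503 to 2074 in the other named types. A mean of 8.28 and 7.10 UMIs of the ribosomal protein genes was found per adipocyte nucleus, against 9.25 and 7.18 per mesothelial nucleus and 20.1 and 11.3 per lymphoid and dendritic nucleus. The number of molecules per nucleus was thus close in adipocytes and mesothelial nuclei, whereas the share differed about as given above. By this mean adipocytes were not the lowest type in replicate 2, where smooth muscle had 4.78 per nucleus. In replicate 1 smooth muscle had a mean of 12.7, above adipocytes. The median per adipocyte nucleus was 6 in both libraries. In replicate 2 lymphoid and dendritic nuclei had a median of 8, and the other named types had 3 to 5. In replicate 1 mesothelial nuclei had 5, endothelial nuclei 6 and the remaining named types 7 to 14. Fewer ribosomal protein transcripts and more transcripts of other genes cannot be told apart from shares.

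The median mitochondrial share also moved with the cell type. It was 5.25% and 0.312% in adipocytes, and 9.03% and 1.24% in mesothelial, 5.46% and 0.923% in FAP, 7.88% and 1.12% in endothelial, 7.84% and 1.15% in macrophage, 7.55% and 1.39% in lymphoid and dendritic and 4.41% and 0.582% in smooth muscle nuclei. Adipocyte markers made up 0.920% and 0.775% of the UMIs of adipocytes and from 0.17% to 0.50% of those of the other named types. Whether these UMIs are free RNA of adipocytes or made by the nuclei was not tested.

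**Figure D2:**
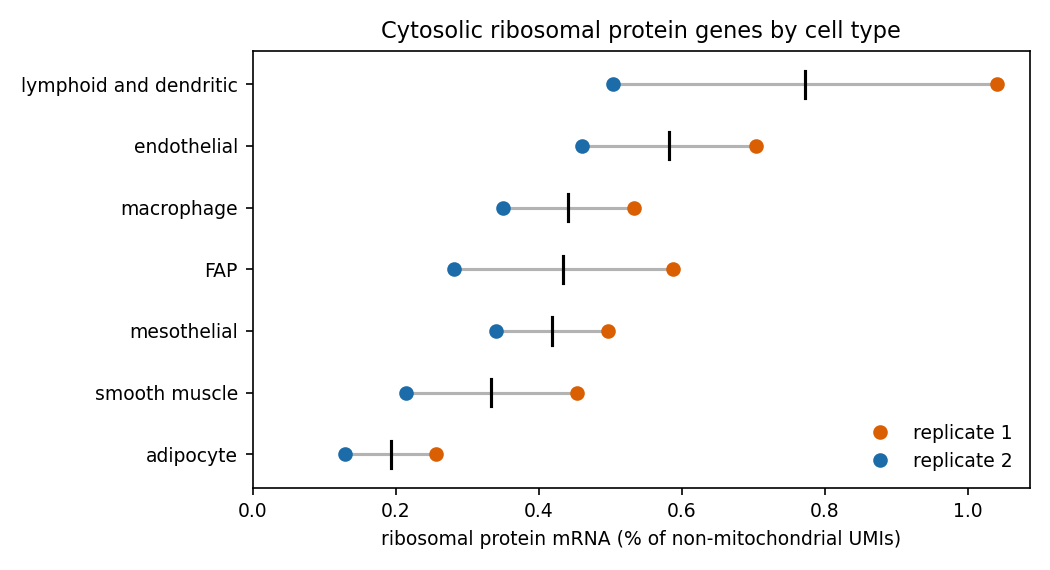
Summed level of the 83 ribosomal protein genes per cell type, as a percentage of non-mitochondrial UMIs (x axis), with 1 point for each library, a line joining them and a bar at their mean. Adipocytes are lowest (0.129% and 0.257%) and lymphoid and dendritic nuclei highest (0.504% and 1.04%), and replicate 1 lies to the right of replicate 2 in every type.

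To see which of the genes carried these differences, UMIs were summed per library and cell type and each type was tested against the mean of the others with edgeR's quasi-likelihood test. The library was a block, p-values were adjusted by the Benjamini-Hochberg method over all 13994 genes tested, and genes with an adjusted p under 0.05 were called. Of the 83 genes, 59 passed the filter on low counts and could be tested. Fold changes are on the log2 scale and include the normalization factors, so they differ somewhat from ratios of the CPM. Residual degrees of freedom were 6. The same nuclei defined the types, with the ribosomal protein genes left out of the genes used for clustering, so the p-values describe the separation of these clusters in 2 animals.

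In adipocytes, 35 of the 59 genes (59.3%) were lower than in the mean of the other types and 0 were higher, whereas over all genes 30.3% were lower and 29.1% higher. The median of the 59 log2 fold changes was -0.77, against 0.01 over all genes tested. Without adjustment, 36 were lower and 1 was higher at p under 0.05, and DESeq2 called 40 lower and 0 higher. In 52 of the 59 genes both libraries had the same direction. All 35 were also called with the size factors of DESeq2, with raw UMI totals and with other settings of the clustering. With the mitochondrial share of each sum as a covariate 25 of them were called. With no replicate block it was 20 of them, and among nuclei with 1000 to 2000 UMIs 16. The median depends on the scaling. It was -1.09 under DESeq2 and -1.20 under raw UMI totals, where that of all genes was -0.30 and -0.41. The distance from all genes, which a change of scaling leaves nearly as it is, was -0.78 (log2). Over the same genes it was -0.83 in each library alone. It shrank to -0.46 when no filter on low counts was applied, where 24 were lower and 8 were higher, and to -0.35 in nuclei with less than 5% mitochondrial UMIs, where 19 were lower. The 5% limit also removed lymphoid and dendritic nuclei and smooth muscle from the types compared with, so the limit and the change of comparison cannot be told apart.

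The 4 genes with the largest fall in adipocytes were all of the small subunit. Rps3 (ENSMUSG00000030744, GRCm39 chr7:99098784-99132945), which lies at the mRNA entry site and also acts in DNA repair, had 46.5 and 17.1 CPM in adipocytes of replicates 1 and 2. It had 139 and 75.4 CPM in mesothelial nuclei, 178 and 77.9 in FAPs, 237 and 90.1 in endothelial nuclei, 132 and 100 in macrophages, 315 and 151 in lymphoid and dendritic nuclei and 103 and 43.9 in smooth muscle. Within each library the adipocytes were below every other type, and the log2 fold change was -1.67 ± 0.20 (SE; adjusted p = 1.99e-10 in edgeR's quasi-likelihood test). Rps3 has no near-identical locus. Rps21 had 54.9 and 17.7 CPM in adipocytes, against a range over the other named types of 139 to 261 CPM in replicate 1 and 38.4 to 146 CPM in replicate 2 (-1.65 ± 0.21, adjusted p = 1.18e-09). Rps4x, the X-linked form of the S4 protein, followed with -1.62 ± 0.25. For Rps4x, smooth muscle of replicate 1 was at 14.7 CPM, below the adipocytes at 17.3 CPM, so its groups overlapped in that library.

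The stalk proteins did not move together. Rplp0, the base of the stalk, had 41.7 and 19.0 CPM in adipocytes and from 49.6 to 230 CPM in the other types, and fell by 1.28 on the log2 scale (SE 0.21, adjusted p = 3.73e-07 in edgeR's quasi-likelihood test). Rplp1, the most abundant of all the genes, had 170 and 65.6 CPM in adipocytes and from 145 to 673 CPM in the other types, and fell by 1.38. Rplp2, the partner of Rplp1 in the stalk, had 39.8 and 23.3 CPM in adipocytes, a log2 fold change of 0.41 and an adjusted p of 0.158. The other named types ranged from 2.74 to 81.2 CPM for Rplp2, on both sides of the adipocytes.

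Rpsa, known also as the laminin receptor, had 84.3 and 39.9 CPM in adipocytes and fell by 1.07. Rps14, a gene whose loss underlies a form of myelodysplastic anaemia, fell by 1.17, Rpl11 by 0.74 and Rps9 by 0.87. Rps19, the gene most often mutated in Diamond-Blackfan anaemia, had a log2 fold change of -0.40 and an adjusted p of 0.060. The remaining genes with known roles outside or within the ribosome passed no test in adipocytes on the scale of all genes. Rps6 had 6.24 and 10.1 CPM in adipocytes (log2 fold change 0.56), Rps27a, which encodes a fusion with ubiquitin, 5.76 and 5.60 CPM (0.42), Rpl5 15.2 and 16.0 CPM (0.19), and Rpl38, known for its part in the translation of Hox mRNAs, 14.7 and 8.94 CPM (-0.24). Rpl10, Rpl13a, Rpl3l and Rps4l were too low to be tested between types.

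Because 49 of the 59 tested genes had a negative fold change in adipocytes, they were also compared with their own sum, a setting added after the data had been seen. With library sizes set to the summed UMIs of the 83 genes, 15 were higher and 6 lower in adipocytes than in the mean of the other types. Over all genes 56.3% were higher and 10.1% lower on this scale, and the median was 0.90, against 0.12 for the ribosomal protein genes. The 6 were all of the small subunit, among them Rps3 (-0.78), Rps21 (-0.77), Rps4x (-0.72) and Rps15 (-0.50). Among the 15 were Rpl17 (1.69), Rpl9 (1.54), Rps6 (1.44), Rps27a (1.32), Rpl30 (1.31) and Rplp2 (1.30). Rpl11, which was lower on the scale of all genes, was at 0.14 on this scale and passed no test. A sum over the genes places values on either side of it, and the share called lower was close to that over all genes. These counts are thus no result about the genes as a group, while single genes differed from their sum in this test. On the scale of all genes, the median was -1.07 for the 23 tested genes of the small subunit and -0.75 for the 36 of the large subunit.

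In lymphoid and dendritic nuclei 31 of the 59 genes (52.5%) were higher than in the mean of the other types and 0 were lower, against 12.1% higher and 10.8% lower over all genes. Without adjustment 33 were higher and 0 lower, DESeq2 called 30 and 0, and the median was 0.79 against -0.08 over all genes. Rpsa (ENSMUSG00000032518, GRCm39 chr9:119956755-119962787) had 564 and 237 CPM there, above the highest of the other named types in each library (197 and 162 CPM), with a log2 fold change of 1.43 ± 0.19 (adjusted p = 1.06e-08 in edgeR's quasi-likelihood test). Rps9 had 619 and 257 CPM (1.22 ± 0.18), above every other named type in each library. Rpl6 had 48.5 and 36.9 CPM (1.37 ± 0.40). Rpl27 had the largest fold change, with 48.5 and 21.1 CPM against 0 to 17.4 CPM in the other named types (2.02 ± 0.54, adjusted p = 0.00291), but it rested on few UMIs and was 3.03 in replicate 1 alone and 1.49 in replicate 2 alone. With the mitochondrial share as a covariate 27 genes were called, 26 of them among the 31. Among nuclei with 1000 to 2000 UMIs 15 genes were called, and with no replicate block 14.

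In endothelial nuclei 22 of the 59 genes (37.3%) were higher and 0 lower, against 10.2% higher and 3.3% lower over all genes. Without adjustment 35 were higher and 0 lower, DESeq2 called 13 and 0, and the median was 0.57 against -0.01 over all genes. Rplp2 had 81.2 and 46.9 CPM in endothelial nuclei, the highest of the named types in both libraries, and a log2 fold change of 1.18 ± 0.30 (adjusted p = 0.00301 in edgeR's quasi-likelihood test). Rps2, which has 29 near-identical loci, had 102 and 49.9 CPM (1.14 ± 0.28), with 2.26 in replicate 1 alone and 0.78 in replicate 2 alone. Rps21 had 261 and 146 CPM (1.02 ± 0.20) and Rpl41 203 and 167 CPM (0.99 ± 0.19). With the mitochondrial share of each sum as a covariate 1 gene was called, with nuclei of less than 5% mitochondrial UMIs 0, and among nuclei with 1000 to 2000 UMIs 0. The median relative to all genes was 0.51 with the covariate and 0.45 with the 5% limit, against 0.57 without them, but 0.039 among nuclei with 1000 to 2000 UMIs, 0.25 with 15 principal components and 0.32 when thinned to 1000 UMIs. Over the same genes it was 0.37 in replicate 1 alone and 0.73 in replicate 2 alone. The endothelial nuclei with over 2% mitochondrial UMIs that held most of the UMIs of replicate 2 are part of these sums.

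Few genes were called in the other named types. In FAPs 0 genes were called in either direction, against 11.1% higher and 5.67% lower over all genes, with 1 higher without adjustment and 0 in DESeq2. In macrophages Rplp1 (0.57) and Rps9 (0.56) were higher and 0 were lower, against 9.5% higher and 5.9% lower over all genes, with 5 higher and 1 lower without adjustment and 2 higher and 0 lower in DESeq2. In mesothelial nuclei Rpl41 alone was higher (181 and 132 CPM, log2 fold change 0.55 ± 0.18, adjusted p = 0.0155 in edgeR's quasi-likelihood test), against 18.8% higher and 9.9% lower over all genes, and 0 were lower. Without adjustment 2 were higher and 0 lower, and DESeq2 called 1 and 0. At a finer clustering 17 genes were called higher in mesothelial nuclei, against 20.3% over all genes there, a count that depends on which nuclei bear the name. In smooth muscle Rps9 (162 and 57.6 CPM, -1.26 ± 0.29) and Rplp1 (279 and 145 CPM, -0.95 ± 0.26) were lower, against 2.88% lower and 5.79% higher over all genes. Without adjustment 19 were lower and 0 higher there, and DESeq2 called 2 and 0. Smooth muscle had the fewest nuclei, and its median of -0.58, against -0.097 over all genes, rests on 291 UMIs of these genes in replicate 1. Its distance from all genes was -0.49, but -0.17 in replicate 1 alone and -0.53 in replicate 2 alone. With so few nuclei a small number of calls does not show a small difference.

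**Figure D3:**
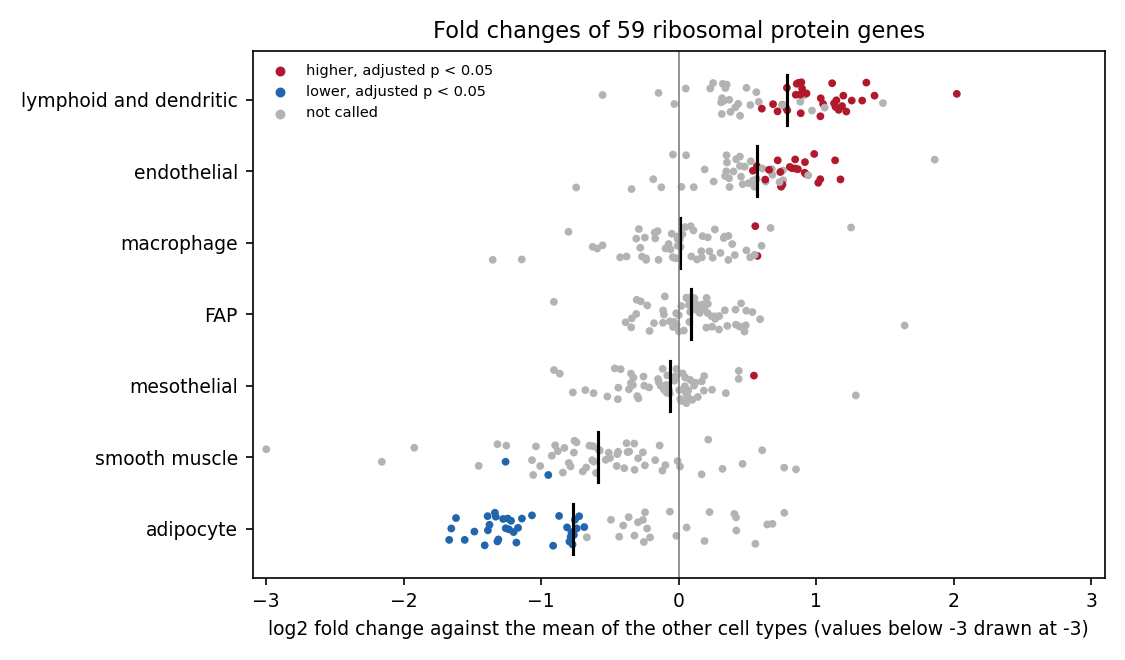
Log2 fold changes of the 59 tested genes in each cell type against the mean of the other types (x axis), 1 point per gene, with a bar at the median. Red and blue mark called genes, higher and lower; 35 are lower in adipocytes, 31 higher in lymphoid and dendritic and 22 higher in endothelial nuclei.

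Of the ribosomal subunit genes that the symbol rule does not reach, 5 were tested in adipocytes, and 2 were lower and 0 higher. Rps3a1 was at -1.10 (adjusted p = 2.57e-05 in edgeR's quasi-likelihood test) and Rpl36al at -0.95 (adjusted p = 0.00331), while Rack1 was at -0.37 (adjusted p = 0.0567). The other lists of the translation machinery each held more genes that were higher than lower there. Of 70 tested genes of mitochondrial ribosomal proteins, 24 were higher and 0 lower (median 0.45). Of 26 translation factors, 12 were higher and 3 lower (median 0.22). The 3 lower ones were Tpt1 (-1.27), Eef1b2 (-1.13) and Eef2 (-0.66), and among the 12 were the cap-binding factor Eif4e (1.22) and its scaffold Eif4g1 (1.44). Of 23 genes of ribosome biogenesis 9 were higher and 1, the nucleolar gene Ncl (-0.57), was lower. Regulators of TOP mRNA translation were higher in 9 of 11, including Mtor (1.22), Larp1 (0.80) and the S6 kinase gene Rps6kb1 (1.22), with 0 lower. The snoRNA host genes, non-coding RNAs that themselves begin with a TOP tract, were higher in 5 of 7, with Gas5 at 0.74 and Snhg1 at 0.87. These counts read against a background of 29.1% higher and 30.3% lower over all genes.

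Genes that resemble the ribosomal protein genes in sequence moved with them. Of 34 tested pseudogenes named after them, 25 were lower in adipocytes and 0 higher (median -1.32), and since their reads can come from the parent genes they are no separate measurement. Among 10 tested short cytoplasmic mRNAs of other functions, 4 were lower, with Tmsb4x at -3.65 and Actb at -2.43. Another 4 were higher, with Cox7c at 0.99 and Cox4i1 at 0.65. The Cox genes and Atp5e of this list encode mitochondrial proteins. Of 8 nuclear RNAs, 5 were higher, with Neat1 at 1.56 and Malat1 at 1.15, and 2, Meg3 and Airn, were lower. In lymphoid and dendritic nuclei 6 of the 26 translation factors were higher and 0 lower, among them Pabpc1 (1.15) and Eif3f (1.16), while 4 of the 8 nuclear RNAs were lower and 0 higher, against 12.1% higher and 10.8% lower over all genes. In endothelial nuclei 7 of the 10 short cytoplasmic mRNAs and 8 of the 13 tested mt- genes were higher and 0 of either list were lower, against 10.2% higher and 3.3% lower over all genes. The lists were chosen with earlier results of these data known, so these counts describe the libraries and support no direction on their own.

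Within a cell type, the ribosomal protein genes took a larger share of the UMIs in nuclei with a higher mitochondrial share. Nuclei were placed in bins of the mitochondrial share, with at least 20 nuclei in a bin, which gave 13 series of a cell type in a library. The share of the ribosomal protein genes among the other UMIs was higher in the last bin than in the first in all 13, by 1.21-fold to 7.46-fold, and rose at each step in 12. The exception was smooth muscle of replicate 2, with 0.166%, 0.154%, 0.213% and 0.204%. In adipocytes of replicate 2 the share was 0.111% in nuclei under 0.25% mitochondrial UMIs, 0.128% between 0.25% and 0.5%, 0.146% up to 1%, 0.177% up to 2%, 0.252% up to 5% and 0.494% up to 10%. In adipocytes of replicate 1 it went from 0.162% in the bin from 0.5% to 1% through 0.172%, 0.222% and 0.278% to 0.347% in the bin from 10% to 15%. The number of these UMIs per nucleus did not always follow the share. It was higher in the last bin than in the first in 10 of the 13 series and lower in 3, which were lymphoid and dendritic nuclei of replicate 1 (20.8 to 19.5) and of replicate 2 (13.2 to 9.50) and smooth muscle of replicate 2 (5.19 to 4.42). In adipocytes of replicate 2 it was 7.78 in the first bin, 5.98 in the bin from 0.5% to 1% and 13.97 in the last.

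Endothelial nuclei of replicate 2 had the steepest rise. The share was 0.149%, 0.163%, 0.187% and 0.248% in the bins up to 2% and then 0.776%, 1.06% and 1.11% in the bins up to 5%, 10% and 15%. The mean number of ribosomal protein UMIs per nucleus was 4.00, 4.24, 3.88 and 4.72 in the first 4 bins and 25.3, 33.1 and 21.3 in the last 3, of 80, 57 and 24 nuclei. Below 2% the endothelial nuclei stood under the mesothelial nuclei and FAPs of the same bins, whereas above 2% they had the highest share of these types.

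The rise was also seen in single nuclei and at equal depth. Over the nuclei of each of 14 cell types and libraries, the rank correlation of the mitochondrial share with the ribosomal protein share was positive in all 14, from 0.134 in lymphoid and dendritic to 0.608 in endothelial nuclei, both of replicate 2. After thinning every nucleus to 850 non-mitochondrial UMIs it was positive in all 14 again, from 0.0390 to 0.585. The lowest value was that of the 23 smooth muscle nuclei of replicate 1. Nuclei of a library share its free RNA and its sequencing depth, and the counts per nucleus are small, so these coefficients describe the libraries.

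At a matched mitochondrial share replicate 1 was no longer the higher library. Replicate 1 exceeded replicate 2 by 1.46-fold to 2.11-fold over whole cell types, as given above. In 11 bins that held at least 20 nuclei in both libraries, the ratio of replicate 1 to replicate 2 had a median of 0.833 and a range from 0.563 to 1.11, and replicate 1 was the lower library in 10 of them. Some of these gaps were larger than those over whole cell types. Replicate 2 was 1.74-fold higher in mesothelial nuclei from 2% to 5% and 1.64-fold higher in endothelial nuclei from 5% to 10%, whereas replicate 1 was 1.46-fold and 1.53-fold higher over all nuclei of these types. In adipocytes from 5% to 10% replicate 2 was 1.78-fold higher, against 1.99-fold in favour of replicate 1 over all adipocytes. In the bin from 2% to 5%, adipocytes had 0.222% and 0.252% in replicates 1 and 2, mesothelial nuclei 0.302% and 0.526%, macrophages 0.391% and 0.554%, FAPs 0.452% and 0.462% and endothelial nuclei 0.573% and 0.776%. Adipocytes were the lowest and endothelial nuclei the highest of these 5 types in either library. In the bin under 0.25%, which replicate 2 alone filled, the types were closer, with 0.111% in adipocytes, 0.149% in endothelial, 0.155% in mesothelial, 0.161% in FAP, 0.166% in smooth muscle and 0.169% in macrophage nuclei. No test was made between bins, since the bins of a library come from 1 animal.

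**Figure D4:**
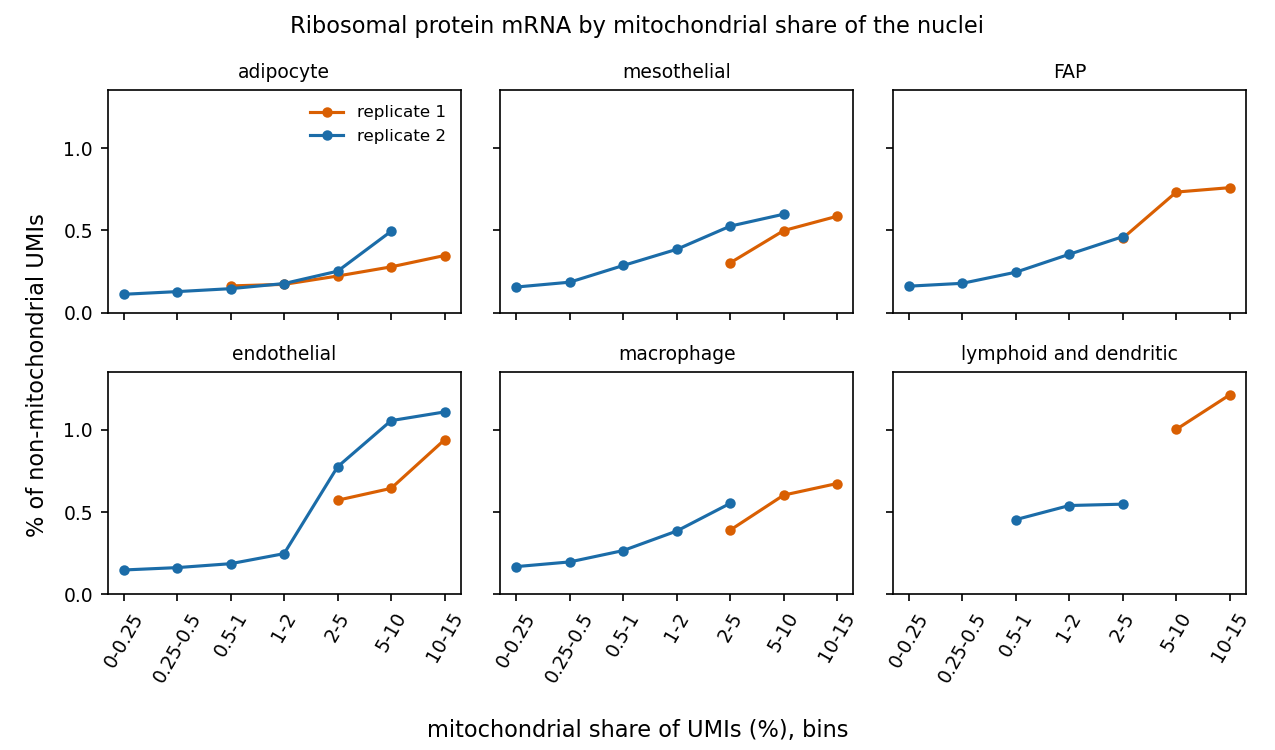
Summed level of the ribosomal protein genes, as a percentage of non-mitochondrial UMIs (y axis), in bins of the mitochondrial share of the nuclei (x axis), for 6 cell types and each library, with at least 20 nuclei per point. Each line of these 6 types rises at every step, from 0.111% to 0.494% in adipocytes of replicate 2 and from 0.149% to 1.11% in endothelial nuclei of replicate 2.

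The relation was tested gene by gene in adipocytes, the type with the most nuclei. Adipocyte nuclei of each library were divided into 3 parts of equal number by their mitochondrial share, with medians of 2.30%, 5.26% and 10.6% in replicate 1 and 0.130%, 0.312% and 0.906% in replicate 2. The ribosomal protein genes made up 0.197%, 0.242% and 0.334% of the non-mitochondrial UMIs in replicate 1 and 0.111%, 0.124% and 0.170% in replicate 2, from the lowest to the highest part. The mean number of these UMIs per nucleus was 6.77, 7.16 and 10.9 in replicate 1 and 7.92, 6.76 and 6.61 in replicate 2. The share rose in both libraries, while the number per nucleus fell in replicate 2, and the highest part of replicate 2 had a lower share than the lowest part of replicate 1. In replicate 2 the depth moved with the parts, with a median of 6956, 4877 and 2921 UMIs per nucleus, while it was 2957, 2418 and 2784 in replicate 1. FAP markers were at 0.0416%, 0.0516% and 0.0489% in replicate 1 and 0.0136%, 0.0182% and 0.0293% in replicate 2. Markers of other types also rose with the parts in replicate 2, those of endothelial nuclei from 0.00327% to 0.00964%, of macrophages from 0.00437% to 0.00955% and of mesothelial nuclei from 0.00444% to 0.00936%. In replicate 1 they went from 0.00680% to 0.00631%, from 0.0133% to 0.0190% and from 0.00843% to 0.0102%. The part of these cell types in the result was not tested.

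Between the highest and the lowest part, 25 of 76 tested genes (32.9%) were higher and 0 lower in edgeR's quasi-likelihood test with the library as a block and mt- genes left out, against 4.18% higher and 3.71% lower over the 16588 genes tested. Without adjustment 36 were higher and 0 lower. The median log2 fold change was 0.48, against 0.06 over all genes. The fit had 2 residual degrees of freedom, and without the block 0 genes were called. DESeq2 called 6 higher and 0 lower, where it gave an adjusted p for only 7 of the genes. By library and over the same tested genes, the median of the ribosomal protein genes was 0.63 in replicate 1, where it was 0.026 over all genes, and 0.24 in replicate 2, where it was 0.00041 over all genes. The distance from all genes was larger in replicate 1.

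Rplp1 rose in both libraries, from 125 through 184 to 238 CPM of non-mitochondrial UMIs in replicate 1 and from 46.3 through 61.4 to 108 in replicate 2 (log2 fold change 0.96 ± 0.12, adjusted p = 7.07e-05 in edgeR's quasi-likelihood test). Rps3 went from 35.5 through 37.3 to 75.7 CPM and from 10.7 through 16.3 to 30.4 CPM (1.19 ± 0.19), and Rplp0 from 28.8 through 29.5 to 74.7 CPM and from 14.2 through 16.7 to 31.5 CPM (1.12 ± 0.20). For Rps3 and Rplp0 most of the rise in replicate 1 lay between the middle and the highest part. The largest fold change among the called genes was that of Rpl29 (1.51 ± 0.44), and replicate 1 decided its size. Rpl29, with 28 near-identical loci, was at 2.11 in replicate 1 alone and 0.80 in replicate 2 alone. The smallest changes among the called genes were those of Rps15a (0.59 ± 0.16), Rpl14 (0.56 ± 0.16) and Rps9 (0.54 ± 0.13).

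Some of the genes did not rise with the mitochondrial share in both libraries. Rps6 had 6.71, 7.80 and 5.55 CPM in the parts of replicate 1 and 8.90, 12.4 and 9.26 CPM in those of replicate 2 (log2 fold change -0.20, adjusted p = 0.775 in edgeR's quasi-likelihood test). Rpl5 had 16.3, 13.9 and 18.2 CPM and 16.8, 17.0 and 13.5 CPM (-0.28), and the parts of its libraries overlap. Rps27a was at -0.15 and Rpl10 at -0.43, and neither passed the test. Rps6, Rpl5 and Rps27a passed no test in adipocytes against other types either on the scale of all genes, whereas relative to the sum of the 83 genes all 3 were higher there (1.44, 1.08 and 1.32). The 13 genes that were lower in replicate 1 than in replicate 2 had a median of -0.07 between the parts, with 3 of the 13 above 0, and the 4 of them that could be tested between cell types were all above 0 in adipocytes.

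**Figure D5:**
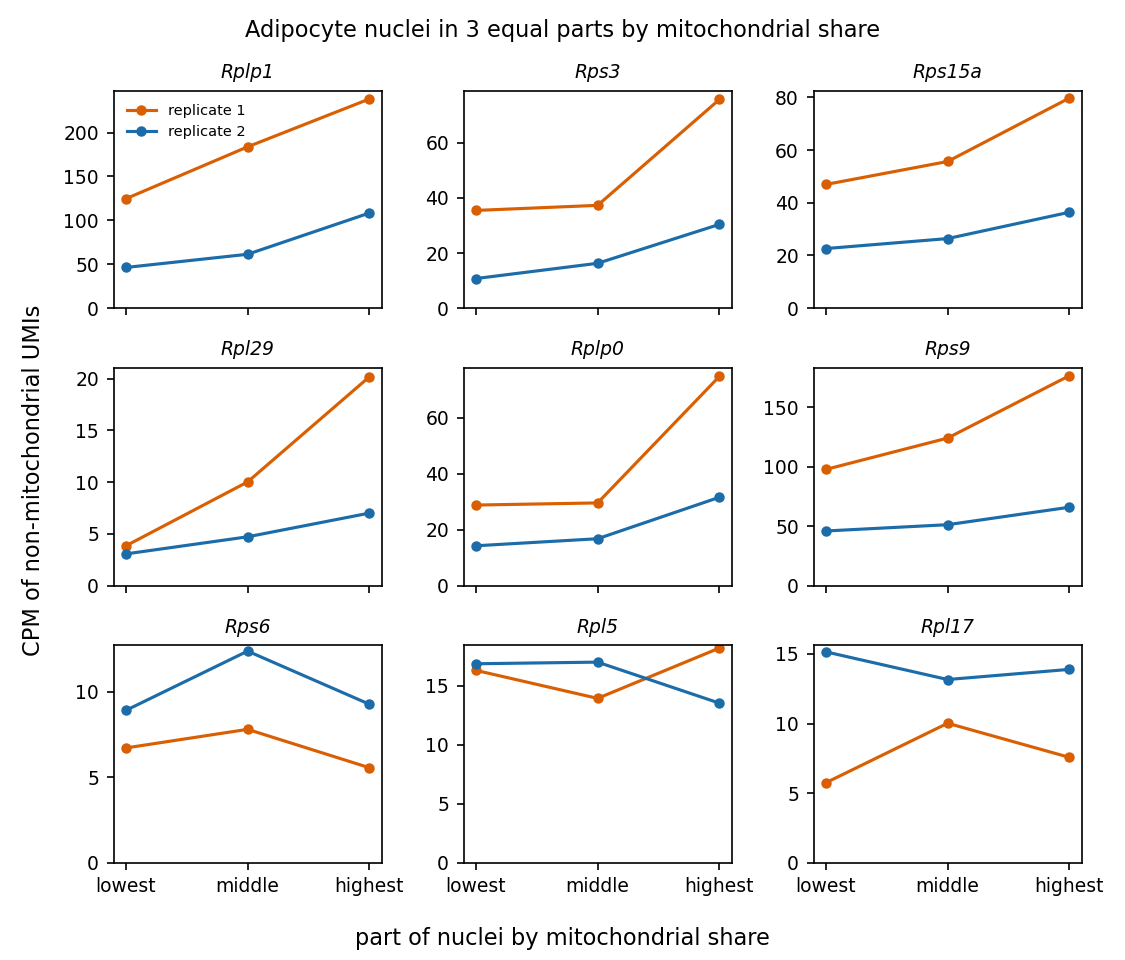
Level of 9 ribosomal protein genes in the lowest, middle and highest part of adipocyte nuclei by mitochondrial share (x axis), in CPM of non-mitochondrial UMIs (y axis from 0, its own scale in each panel), with 1 line for each library. Rplp1, Rps3, Rps15a, Rpl29, Rplp0 and Rps9 rise from the lowest to the highest part in both libraries, whereas Rps6, Rpl5 and Rpl17 do not.

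The number of near-identical loci moved with this division of the genes. The median log2 fold change between the parts was 0.61 for the 20 genes with 0 or 1 other locus, 0.57 for the 18 tested with 2 to 5, 0.24 for the 20 with 6 to 9 and 0.0046 for the 18 with 10 or more. In adipocytes against the other types the medians of the tested genes were -0.84, -1.29, -0.73 and -0.25 in the same order, and the ratio of replicate 1 to replicate 2 had medians of 1.85, 1.62, 1.49 and 1.40. Genes with many copies thus differed less in each of these comparisons, which share nuclei. Rps29, with no other locus and a value of -0.74 between the parts, and Rpl29, with 28 and a value of 1.51, stand against this order. Its cause was not tested.

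Among the other lists, the short cytoplasmic mRNAs and the nuclear RNAs moved in opposite directions between the parts. Of 12 short cytoplasmic mRNAs 6 were higher and 0 lower (median 0.61), with Cox4i1 at 1.09, Atp5e at 1.01 and Actb at 0.79. Cox4i1, Atp5e and Cox6c (0.95) are among the 6 and encode mitochondrial proteins. Whether they moved with cytoplasmic RNA or with mitochondrial content was not tested. Of 8 nuclear RNAs 5 were lower and 0 higher (median -0.35), with Malat1 at -0.36 and Neat1 at -0.35. The ribosomal protein genes stood between these medians, at 0.48. Of 77 genes of mitochondrial ribosomal proteins 2 were higher (median 0.09), and of 26 translation factors Eif1 (0.61) and Eef1b2 (0.84) were higher. Neither list had a gene that was lower. No gene of ribosome biogenesis (24 tested), of TOP translation control (11 tested) or of the snoRNA hosts (7 tested, median -0.096) was called in either direction. All counts of this paragraph read against a background of 4.18% higher and 3.71% lower over all genes tested.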

How the data were processed

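The deposited matrices hold counts, which the authors made with CeleScope by aligning reads to GRCm39 and counting UMIs per gene and barcode, without normalization. The annotation version and the treatment of reads with several matches are not given in the sources used here. The other deposited tables, which hold totals and saturation without genes, were not used.

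The genes and the lists compared with them were chosen with earlier results of these data known. Nuclei were filtered as in the study (over 500 genes, over 1000 UMIs, under 15% mitochondrial UMIs), which left more nuclei here than the study gives. The 1000 most variable genes, without the listed genes, gave 30 principal components, which were integrated by Harmony rewritten in numpy 2.4.6, and Leiden clustering (leidenalg 0.10.2, igraph 0.11.9, 20 neighbours, resolution 0.1, seed 1) followed under Python 3.11.15 with scanpy 1.11.5, anndata 0.12.19, scikit-learn 1.9.0, scipy 1.17.1 and pandas 2.3.3. A cluster took a name where at least 3 markers and at least 0.5 of the markers of the type were 2-fold higher and seen in 5% of its nuclei, unless the share of markers of another type came within 0.25 of it. This rule was revised after the clusters had been seen. Scrublet marked 1 nucleus in each library and so did not work. No nuclei were removed as doublets, except in an alternative without the 6% of nuclei with the highest scores.

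UMIs were summed per library and cell type (at least 20 nuclei), or per library and part of the adipocytes, and tested with edgeR 4.0.16 under R 4.3.3 (TMM, filterByExpr, quasi-likelihood F test, two-sided, Benjamini-Hochberg adjustment over all genes tested). The library was a block, since the sums of a library come from 1 animal. The replicates are numbered in the labels, and the study gives them as 2 mice. DESeq2 1.42.0 was an alternative. The scripts were tested on simulated data. Near-identical loci were found with blastn 2.17.0 in GRCm39 with GENCODE vM39, and starts come from RefSeq. Plots were drawn with matplotlib 3.10.9.

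Named genes were up to 4 called genes per cell type with the largest change and the same direction in both libraries, the 5 highest and 5 lowest detected per kilobase, the 3 highest and 3 lowest called between the parts of the adipocytes, 5 paralogs and 14 genes of known role. Some genes that this rule names are not reported here. Rpl17, Rpl9, Rpl30, Rpl32, Rps29 and the genes with the most loci were named after their values were seen. Alternatives chosen after seeing the data were raw UMI totals, the genes relative to their own sum, nuclei with 1000 to 2000 UMIs, and smooth muscle left out.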

Additional observations from a re-analysis of the deposited data

Results flagged for a closer look

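The small cluster that could not be named lay outside the comparisons and had the highest level of the ribosomal protein genes of all clusters, with 1.48% of non-mitochondrial UMIs in the 28 nuclei of replicate 1 and 0.636% in the 41 nuclei of replicate 2. Its leading genes were Saa3, Prg4, Alox15 and Cd5l, its median mitochondrial share was 10.3% and 4.14%, and it held a mean of 35.5 and 18 ribosomal protein UMIs per nucleus. Nuclei that failed only the mitochondrial limit were also outside the comparisons. They had 0.550% in replicate 1 (1641 nuclei) and 1.29% in replicate 2 (49 nuclei), above the 0.352% and 0.192% of the kept nuclei. There are no control samples for either value.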

How the results depend on the processing

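The number of genes called lower in adipocytes (35) moved to 19 with a mitochondrial limit of 5%, 20 with no replicate block, 16 among nuclei with 1000 to 2000 UMIs and 6 relative to their own sum. The number called higher in adipocytes (0) moved to 8 with no filter on low counts, 15 relative to their own sum, 1 at a resolution of 0.3 and 2 with smooth muscle left out. The median of all genes in adipocytes shifted by 0.31 (log2) without the filter, -0.31 under DESeq2 and -0.43 under raw UMI totals.

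The number higher in lymphoid and dendritic nuclei (31) moved to 14 with no replicate block, 15 among nuclei with 1000 to 2000 UMIs and 1 relative to their own sum. The number higher in endothelial nuclei (22) changed under many settings. It moved to 1 with 15 principal components, 13 under DESeq2, 0 with the 5% limit, 1 with the mitochondrial share as a covariate, 10 without the filter, 1 with no replicate block, 0 among nuclei with 1000 to 2000 UMIs, 0 relative to their own sum, 14 at a resolution of 0.3 and 3 when thinned to 1000 UMIs.

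The number higher in mesothelial nuclei (1) moved to 5 with 15 components, 3 without doublets, 0 with the 5% limit, with the covariate, with no replicate block and among nuclei with 1000 to 2000 UMIs, 2 without integration and under raw totals, 17 at a resolution of 0.3 and 3 when thinned, and the number lower (0) moved to 3 with smooth muscle left out. In macrophages the number higher (2) moved to 4 with 15 components, with the genes kept as features, with mt- genes left out and under raw totals, 5 without doublets, 1 among nuclei with 1000 to 2000 UMIs and at a resolution of 0.3, and 0 with the 5% limit, the covariate, no filter, no replicate block, their own sum and smooth muscle left out, and the number lower (0) moved to 1 among nuclei with 1000 to 2000 UMIs and with smooth muscle left out. In smooth muscle the number lower (2) moved to 4 with the genes kept as features, 5 with mt- genes left out, 7 without integration, 0 with no replicate block, 1 under raw totals, 0 relative to their own sum and 5 at a resolution of 0.3.

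The number higher in the highest part of the adipocytes (25) moved to 6 under DESeq2, 13 with 2 parts in place of 3, 11 with the 5% limit, 5 without the filter, 0 with no replicate block and 13 when thinned. The summed share of UMIs in mesothelial nuclei moved from 0.394% to 0.309% with the 5% limit. These values and the next are shares of all UMIs, mt- genes included, unlike the levels by cell type above. With 2 libraries, leaving out 1 gives the value of the other. Leaving out either replicate gave 0.129% to 0.241% in adipocytes, 0.336% to 0.453% in mesothelial, 0.279% to 0.551% in FAP, 0.449% to 0.648% in endothelial, 0.346% to 0.493% in macrophage, 0.496% to 0.961% in lymphoid and dendritic and 0.214% to 0.427% in smooth muscle nuclei.

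Of 549 alternative values with a test of 42 results on single genes, 391 kept their direction and their side of the threshold, 152 kept the direction only and 6 changed sign. Of 84 values from 1 library, 12 moved by more than the spread. That spread was taken between the same single-library values, so staying within it does not show that the libraries agree. The 6 were Rpl11 in adipocytes (0.14) and Rpl11 (-0.086) and Rplp1 (-0.20) in lymphoid and dendritic nuclei relative to their own sum, and Rplp1 (-0.14), Rps14 (-0.49) and Rps21 (-0.027) in endothelial nuclei with 1000 to 2000 UMIs. A sum over the genes fixes part of the first 3, and the cause of the others was not tested. With the 5% limit, lymphoid and dendritic and smooth muscle nuclei were too few to test, and smooth muscle was also too few among nuclei with 1000 to 2000 UMIs, so under both settings the types compared with changed too. With 1 library left, fold changes have no test. Depth limits the genes under 100 UMIs, 6 of the 83, and those that the filter left out.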

Other observations

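At a finer clustering (resolution 0.3) the adipocytes and part of the mesothelial nuclei were divided into groups with unlike levels of the ribosomal protein genes. A group led by Cidea, Adra1a, Ucp1 and Dio2, genes known from thermogenic fat, stayed without a name because no marker list reached the rule. It had 0.231% and 0.116% of non-mitochondrial UMIs in replicates 1 and 2 (187 and 858 nuclei), close to the 0.243% and 0.124% of the group that kept the name adipocyte (1149 and 3795 nuclei). The remaining large group, led by Chl1 and by Gm10801 and its relatives, also stayed without a name, and 67.9% of its nuclei came from the broader adipocyte and 32.1% from the broader mesothelial cluster. It had 0.327% and 0.175% (626 and 2314 nuclei) but a mean of only 5.12 and 3.51 ribosomal protein UMIs per nucleus, with a median of 1446 and 1817 UMIs in all. The finer mesothelial cluster of 222 and 1923 nuclei had 0.637% and 0.430%, above the 0.498% and 0.341% of the broader one. No test was made between these clusters.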
